A study of Mus musculus with 2 samples.

Results

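The immune cell marker genes examined here are 9 genes that are usually read as signs of blood-derived cells, namely Ptprc, Cd3e, Cd4, Cd8a, Itgam, Adgre1, Csf1r, Cd68 and Lyz2. They were taken by name, and a peak was counted for a gene when it touched the gene's GRCm38 span or the 5 kb on either side. All 9 had a position in the gene table used, which holds 21774 protein-coding genes, and 5 of the 40119 deposited H3K9me3 peaks met the rule. The mark was profiled by chromatin immunoprecipitation and sequencing (ChIP-seq) in intestinal stem cells, sorted as GFP-high and CD24-low from 12 mice. The mice were C57BL/6 animals of 8 weeks that carried Lgr5-EGFP-IRES-creERT2 and floxed Setdb1. In this line the Lgr5 locus drives both the fluorescent protein and a tamoxifen-dependent Cre, and Setdb1 encodes an H3K9 methyltransferase. The labels do not say whether the Cre was induced, so whether Setdb1 was intact in these cells is not known here. The design holds 1 H3K9me3 ChIP library and 1 control library, which the labels call input in one field and IgG in another, and both carry the same alleles, strain, age and sort. There was no second genotype and no replicate, so no test between samples was made, and the tag intervals given below cover counting error alone.

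H3K9me3 is trimethylation of lysine 9 on histone H3. It is a mark of heterochromatin that is bound by HP1 proteins and is best known at repeats, at imprinted regions and at zinc finger gene clusters. Many genes of other lineages are silent in a cell without carrying it, since they can be held off by Polycomb, by DNA methylation or by the lack of an activator. Leukocyte markers are background genes in crypt epithelium, where lymphocytes and macrophages lie next to the stem cells and can enter a sort. RNA was not measured in these libraries, so the silence of the genes in the sorted cells was not measured either, and a peak list cannot show how many leukocytes the sort held.

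Of the 9 genes, 5 had a peak in the gene or within 5 kb, and each of the 5 had 1. The rate over all protein-coding genes under the same rule was 55.6%, and 5 of 9 is a share near that. A peak lay over the gene itself at 3 of 9 genes (Cd8a, Adgre1 and Csf1r), against 46.6% of protein-coding genes. A peak lay within 2 kb of an end at 2 of 9 (Cd8a and Cd68), against 36.7%. No gene of the 9 had a strong peak, meaning one in the top 10% of the list by normalized tag count (at least 50.8), against 6.61% of protein-coding genes. Ptprc, Cd3e, Itgam and Lyz2 had no peak under the rule. The smallest peak of the list held 9 tags, and no peak had a fold over control below 4. A gene without a peak may thus still carry tags, either fewer than 9 or more at a lower fold.

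**Figure D1:**
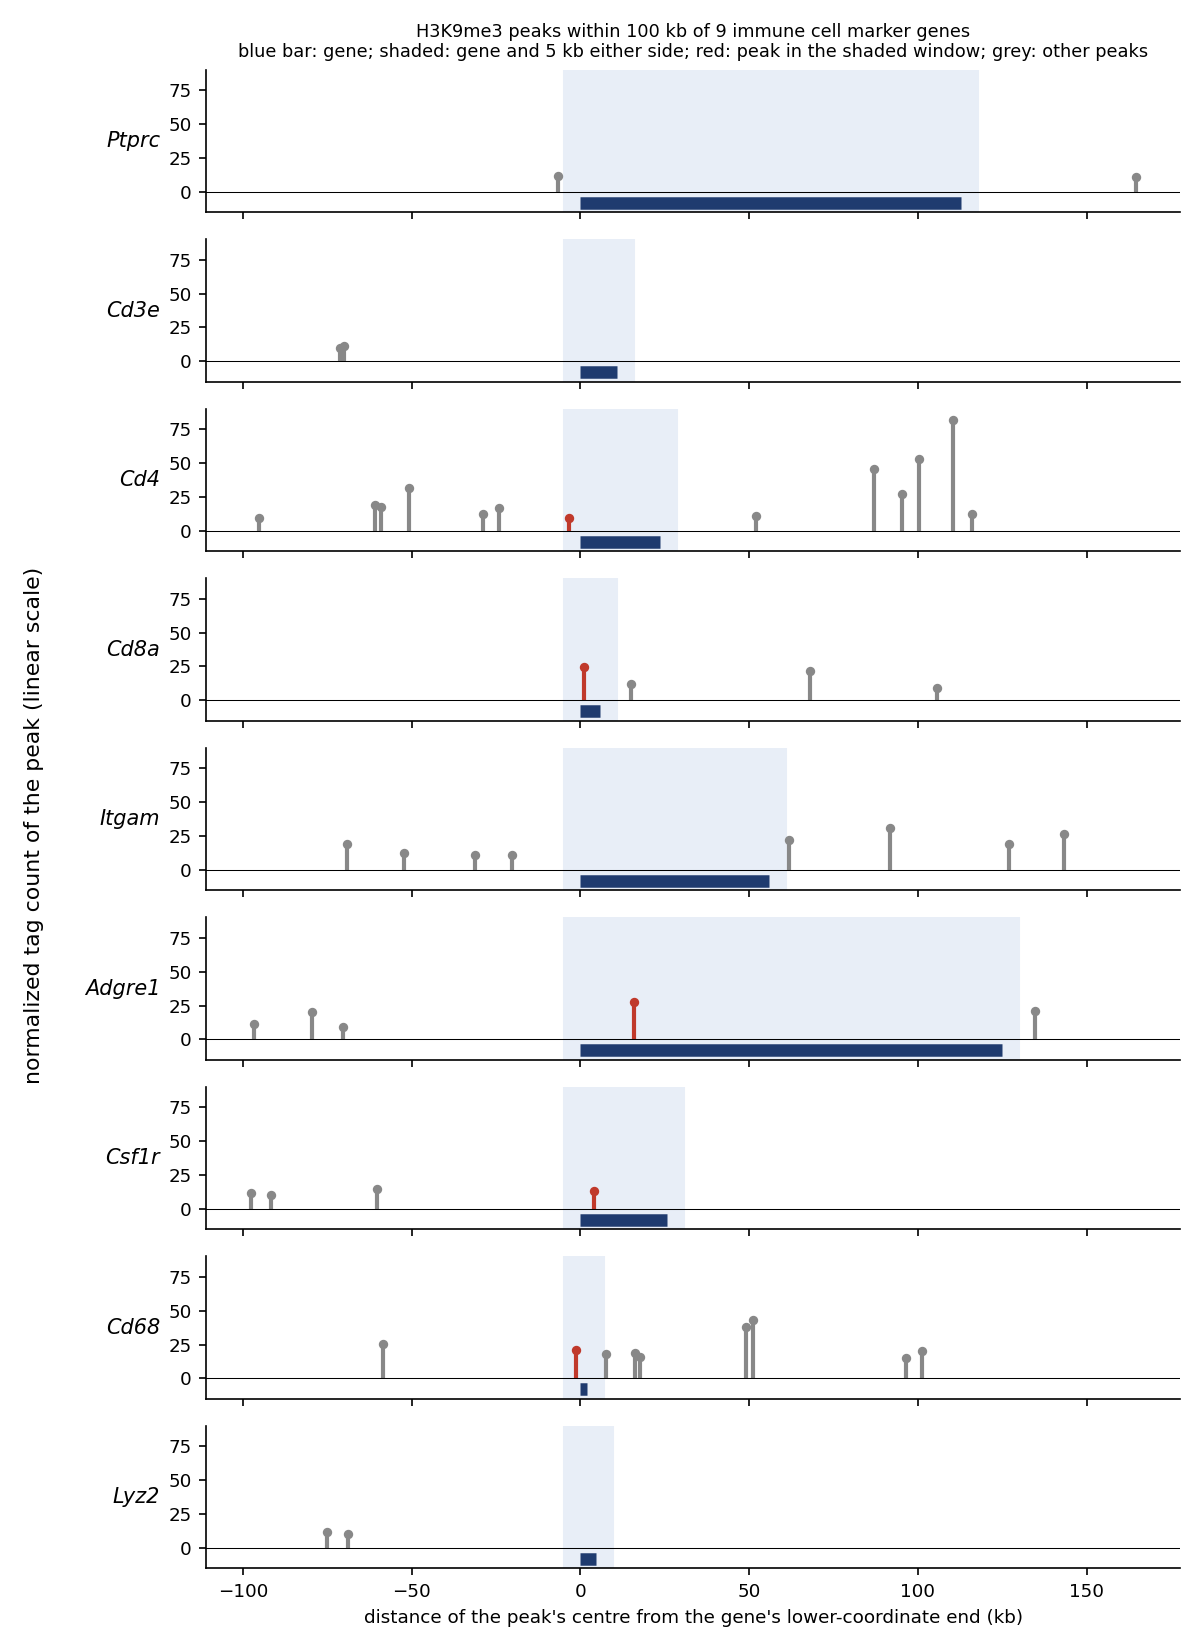
Peaks within 100 kb of each of the 9 genes, placed by the distance of the peak's centre from the gene's lower-coordinate end in kb, with the normalized tag count of each peak as height. Red stems are the 5 peaks that lie in the gene or within 5 kb of it (9.43 to 27.8 normalized tags), and grey stems are other peaks. The tall grey stem of 81.7 normalized tags stands at 110 kb in the Cd4 panel. That peak begins 85.6 kb past the upper-coordinate end of Cd4.

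Ptprc encodes CD45, the receptor phosphatase of all nucleated blood cells. It spans 113 kb on chromosome 1 (138062859 to 138175756, minus strand), and no peak touched it. The nearest peak (138055840 to 138056340) lay 6.52 kb past its far end and held 11.5 ChIP tags (12.0 normalized tags) beside 0.5 control tags, which is the lowest control value the list holds. On the other side the next peak (138227256 to 138227756) lay 51.5 kb upstream of the start with 10.5 ChIP tags and 1 control tag. Ptprc was therefore the sole protein-coding gene inside a stretch of 171 kb without a peak, longer than 90.1% of the gaps between neighbouring peaks. Its surroundings were sparse too. The 1 Mb centred on the gene held 4 peaks, against a median of 18 for protein-coding genes and an average of 12.5 per Mb on chromosome 1. Among protein-coding genes in the same of 5 length classes, the longest, 75.8% had a peak in the gene or within 5 kb.

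The T cell genes differed among themselves. Cd3e, a signalling chain of the T cell receptor complex, lies on chromosome 9 (44998735 to 45009663, minus strand) in a peak-free stretch of 189 kb. The same stretch holds the genes of the partner chains Cd3d and Cd3g and also Mpzl2, Mpzl3 and Jaml, so the absence of peaks at the Cd3 genes is 1 observation and not 3. The nearest peak (44928335 to 44928835, inside Ube4a) was 69.9 kb away with 11 ChIP tags and 0.5 control tags. Of protein-coding genes, 91.2% had a nearer peak.

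Cd4, the co-receptor of helper T cells, spans chromosome 6 from 124864693 to 124888247. Its single peak (124861147 to 124861647) did not touch the gene. It lay 3046 bp below the lower-coordinate end and wholly inside the neighbouring gene Gpr162, an orphan G-protein-coupled receptor that ends 498 bp from Cd4. It held 9 ChIP tags (4.12 to 17.1 by the Poisson interval at 95%) beside 0.5 control tags, and its normalized tag count of 9.43 and score of 9 are the lowest values in the deposited list. P3h3 and the long non-coding RNA gene Gm32404 were also within 5 kb of it. Cd4 stood in the most peak-rich surroundings of the 9 genes, with 13 peaks within 100 kb and 63 in the 1 Mb around it, against a median of 5 and 18 for protein-coding genes. The tallest of the 13, at 124973833 to 124976501 over Cops7a, held 78 ChIP tags beside 7 control tags. Between the Gpr162 peak and the next one above, a stretch of 54.7 kb with Cd4 and Lag3, an inhibitory receptor of T cells, carried no peak.

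Cd8a, the alpha chain of the co-receptor of cytotoxic T cells, had a taller peak than Cd4, while Cd3e had none. The gene lies on chromosome 6 from 71373427 to 71379171 on the plus strand, and the peak (71374030 to 71375062) began 603 bp after the start and covered 18.0% of the gene. It held 23.5 ChIP tags (15.0 to 35.1), or 24.6 normalized tags, beside 1 control tag (0.0253 to 5.57). Scaled to the control's depth this was 16.1 ChIP tags to 1 control tag, a fold of 16.1 in the authors' list. Of all peaks, 68.5% had a lower normalized tag count. No other annotated gene lay within 5 kb of this peak. The next one (71388171 to 71388671, in Rmnd5a) lay past the far end of Cd8a with 11.5 ChIP tags and 1 control tag. The peak stopped short of the promoter, by 554 bp from the window of 250 bases before to 50 after the start. That window (chr6:71373177-71373476, plus strand, RefSeq on GRCm38.p6) is shown because it is the member promoter closest to a peak. Capitals mark CG.
Cd8a promoter: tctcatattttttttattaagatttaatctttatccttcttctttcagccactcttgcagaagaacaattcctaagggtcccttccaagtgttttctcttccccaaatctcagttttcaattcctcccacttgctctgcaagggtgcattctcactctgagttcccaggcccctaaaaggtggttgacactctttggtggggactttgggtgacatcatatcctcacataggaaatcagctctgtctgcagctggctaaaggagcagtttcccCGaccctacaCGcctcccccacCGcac
It holds 3 CG, and 23.3% of the 32817 promoter windows in the RefSeq table hold fewer.

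The 3 myeloid surface genes had a peak at 2 of 3, a share near that of all protein-coding genes. That share was 55.6%, and 64.5% when weighted to the same mix of gene lengths. Adgre1 encodes F4/80, the adhesion receptor used as a macrophage marker in mice, and spans 125 kb of chromosome 17 (57358581 to 57483529). Its peak (57374012 to 57374949) lay inside the gene, 15.4 kb from the lower-coordinate end, and covered 0.751% of the span. It was the tallest of the 5 peaks, with 26.5 ChIP tags (17.4 to 38.7), or 27.8 normalized tags, beside 1.5 control tags (0.108 to 6.42), and 73.7% of all peaks had a lower normalized tag count. A further peak of 20 ChIP tags and 2 control tags lay 9.27 kb above the gene. Among protein-coding genes of the longest of the 5 length classes, to which Adgre1 belongs, 71.9% had a peak over the span.

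Csf1r encodes the receptor tyrosine kinase for CSF-1, on which macrophages depend. It spans chromosome 18 from 61105572 to 61131139, and its peak (61109145 to 61109940) lay inside the gene, 3573 bp from the lower-coordinate end. The peak held 12.5 ChIP tags (6.56 to 21.6), or 13.1 normalized tags, beside 1 control tag, and its fold of 8.55 was the lowest of the 5. Its score of 9 equals the lowest in the list. The neighbour on the lower side, Pdgfrb, a growth factor receptor of mesenchymal cells, had a separate peak of 14 ChIP tags and 0.5 control tags, 60.1 kb from Csf1r.

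Itgam encodes CD11b, the alpha subunit of the Mac-1 integrin of monocytes, macrophages and neutrophils. It spans 55.9 kb of chromosome 7 (128062640 to 128118491, plus strand) and had no peak under the rule. A peak of 21 ChIP tags beside 1.5 control tags (128124039 to 128125057) lay 5548 bp past its far end, just beyond the 5 kb limit, and was within 5 kb of Itgax, which encodes CD11c. Around the limit, the Cd4 peak at 3046 bp counted, and the peaks at 5548 bp from Itgam and 6519 bp from Ptprc did not. Peaks lay on both sides of Itgam but none inside, in a stretch of 81.4 kb, while the 1 Mb around it held 40 peaks. The integrin gene Itgad, further along the same cluster, had 2 peaks over its span, the taller with 25 ChIP tags and 1 control tag.

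Cd68 and Lyz2 encode lysosomal products of macrophages. Cd68, the glycoprotein macrosialin, is a short gene on chromosome 11 (69664213 to 69666170, minus strand). Its peak (69662488 to 69663440) held 20 ChIP tags (12.2 to 30.9), or 21.0 normalized tags, beside 1 control tag (0.0253 to 5.57). It lay outside the gene, 773 bp past the far end, and it overlapped the neighbouring gene Mpdu1 by 162 bp at that gene's start. Mpdu1 is a housekeeping gene needed for mannose use in glycosylation. All 300 bases of the Mpdu1 promoter window lay within the peak, as did the hairpin of the microRNA gene Mir1934. The peak counted for Cd68 thus lay over the start of Mpdu1 and did not touch Cd68. With each peak given to its nearest protein-coding gene, it no longer counted for Cd68. These sequences are shown because they are the annotated elements under the peak. The Mpdu1 window is chr11:69662600-69662899 on the minus strand, with CG in capitals. The mature microRNAs are chr11:69663055-69663077 and chr11:69663092-69663113 on the plus strand, with the seed (bases 2 to 8) in capitals (RefSeq, GRCm38.p6).
Mpdu1 promoter: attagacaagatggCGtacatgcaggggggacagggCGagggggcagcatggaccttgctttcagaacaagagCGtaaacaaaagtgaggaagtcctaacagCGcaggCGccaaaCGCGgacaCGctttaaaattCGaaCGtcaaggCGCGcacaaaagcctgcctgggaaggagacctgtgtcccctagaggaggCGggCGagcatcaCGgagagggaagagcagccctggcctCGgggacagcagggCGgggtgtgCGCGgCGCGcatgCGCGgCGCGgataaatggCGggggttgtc
mmu-miR-1934-5p: uCUGGUCCccugcuucguccucu
mmu-miR-1934-3p: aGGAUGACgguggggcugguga
The Mpdu1 window holds 26 CG, more than 83.1% of promoter windows. The promoter of Cd68 itself (chr11:69666121-69666420, minus strand) lay 2681 bp from the peak and holds 4 CG. It is printed for comparison, again with CG in capitals.
Cd68 promoter: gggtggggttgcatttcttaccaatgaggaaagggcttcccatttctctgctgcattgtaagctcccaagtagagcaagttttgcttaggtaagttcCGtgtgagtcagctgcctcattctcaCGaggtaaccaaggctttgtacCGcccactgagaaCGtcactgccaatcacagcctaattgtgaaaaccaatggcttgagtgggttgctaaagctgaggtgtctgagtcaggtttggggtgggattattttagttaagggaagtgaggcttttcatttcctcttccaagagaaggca
On the start side of Cd68 the next peak, of 17.5 ChIP tags and 2 control tags, was 5.38 kb away and inside Eif4a1, a helicase gene of translation initiation.

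Lyz2 encodes lysozyme M of macrophages and granulocytes, and its tandem partner Lyz1 encodes the lysozyme of Paneth cells, the neighbours of stem cells in the crypt. Lyz2 lies on chromosome 10 from 117277541 to 117282272 on the minus strand, in a peak-free stretch of 221 kb that also holds Lyz1, Cpsf6, Yeats4 and 9530003J23Rik. Of the gaps between neighbouring peaks, 93.6% were shorter. The nearest peak (117208361 to 117208861) was 68.7 kb away with 9.5 ChIP tags and 0.5 control tags, and 91.0% of protein-coding genes had a nearer one. Peaks were not scarce on the wider scale, since the 1 Mb around Lyz2 held 24. The promoter window (chr10:117282223-117282522, minus strand) has a single CG, in capitals, and is shown as the most CG-poor of the 6 member promoters in the table.
Lyz2 promoter: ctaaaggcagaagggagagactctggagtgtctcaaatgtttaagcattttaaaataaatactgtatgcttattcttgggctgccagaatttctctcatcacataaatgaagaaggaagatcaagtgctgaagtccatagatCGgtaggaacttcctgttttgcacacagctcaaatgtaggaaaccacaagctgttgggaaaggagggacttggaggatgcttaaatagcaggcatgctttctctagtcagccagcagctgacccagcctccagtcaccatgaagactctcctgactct

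**Figure D2:**
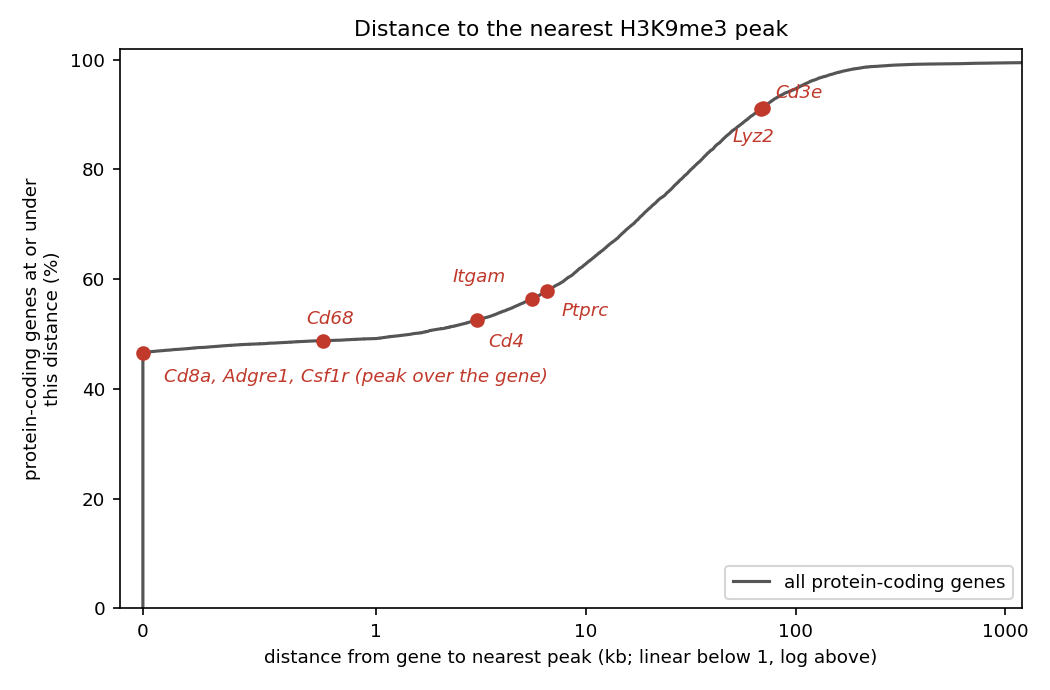
Distance in kb from a gene to its nearest peak (horizontal axis, linear below 1 kb and logarithmic above) against the percentage of protein-coding genes at or under that distance. Cd8a, Adgre1 and Csf1r stand at 0, Cd68, Cd4, Itgam and Ptprc between 0.773 and 6.52 kb, and Lyz2 and Cd3e at 68.7 and 69.9 kb.

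The 9 genes fell into 3 ranges of distance. A peak touched 3 of them, 4 had their nearest peak between 0.773 and 6.52 kb away, and Lyz2 and Cd3e were 68.7 and 69.9 kb from theirs. The median distance over all protein-coding genes was 1.48 kb, and 90% lay within 62.9 kb. Strong peaks were further away from every member. The nearest was 76.3 kb from Cd4, and the furthest was 862 kb from Cd3e, with a median of 174 kb over the 9 genes and 228 kb over all protein-coding genes.

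The 5 peaks were of ordinary size for the list. Their normalized tag counts were 27.8 at Adgre1, 24.6 at Cd8a, 21.0 at Cd68, 13.1 at Csf1r and 9.43 at Cd4, with a median of 21.0, against 17.3 for all peaks. The order by height is thus Adgre1, Cd8a, Cd68, Csf1r, Cd4, but the Poisson intervals of neighbours in this order overlap. The interval of Cd4 (4.12 to 17.1 tags) also overlaps those of Cd68 (12.2 to 30.9) and Cd8a (15.0 to 35.1). It ends below that of Adgre1 (17.4 to 38.7). Control tags were 0.5 to 1.5, with a median of 1 at these peaks and of 1 in the whole list. The authors' fold ran between 8.55 and 16.08 with a median of 12.32, and the median over all peaks was also 12.32. Widths ran between 500 and 1032 bp, with a median of 937 bp, against 769 bp for all peaks. The authors' peak p-values ran between 1.87e-14 at Cd8a and 1.32e-05 at Cd4.

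**Figure D3:**
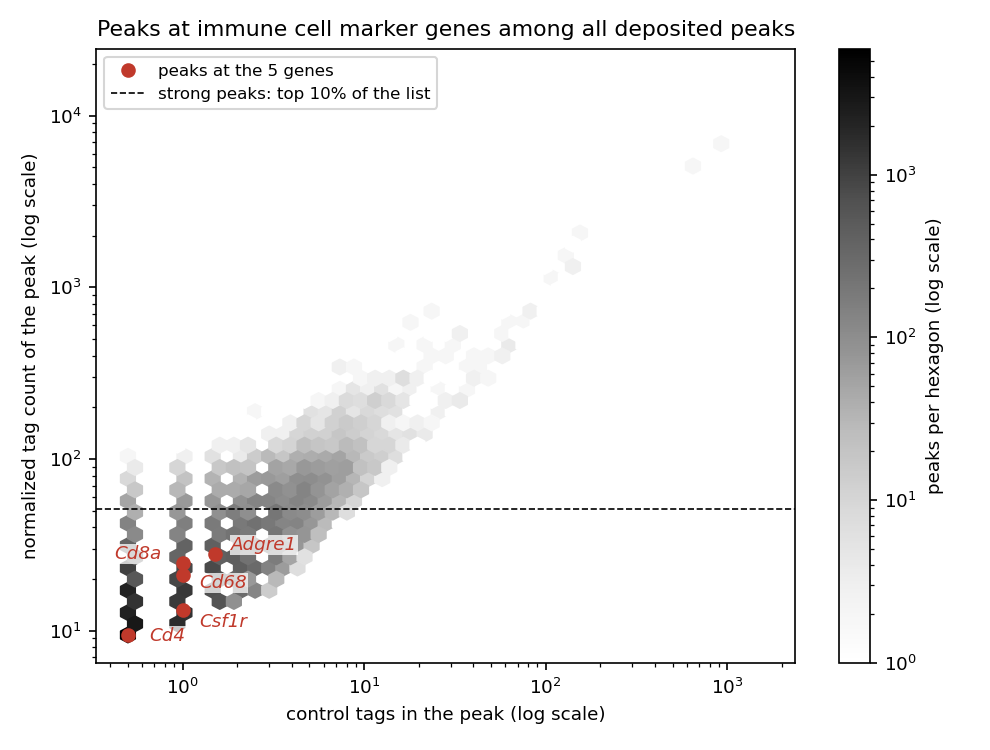
Normalized tag count against control tags for all 40119 deposited peaks (grey hexagons, shaded by the number of peaks on a log scale; both axes logarithmic), with the peaks at Cd4, Cd8a, Adgre1, Csf1r and Cd68 in red. The 5 peaks have 0.5 to 1.5 control tags and lie below the dashed line at 50.8 normalized tags that bounds the top 10%.

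The 9 markers were set beside 71 other immune genes. Of the 71, 25 (35.2%) had a peak in the gene or within 5 kb. This stands beside 55.6% of all protein-coding genes, and 54.1% once these are weighted to the same mix of gene lengths. A peak lay over the gene at 17 of the 71 (23.9%), against 46.6% of protein-coding genes. A strong peak lay at 1 of the 71, against 6.61%. The genes are not independent, since neighbours in a cluster share peaks or the lack of them, and no test of the list was made.

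Among other T cell genes, 8 of 20 had a peak, and these included both signalling and regulatory genes. Tbx21, the master regulator of Th1 cells, had the tallest (29.3 normalized tags and 2.5 control tags). Cd247, the zeta chain of the T cell receptor complex, had 3 peaks inside the gene, the tallest with 27.2 normalized tags and 0.5 control tags. Zap70, the kinase that binds the zeta chain, had 3, of which the tallest reached 24.6 normalized tags beside 2 control tags. Gata3, a regulator of Th2 cells that is also used outside the immune system, had 4, the tallest at 20.4 normalized tags beside 1 control tag.

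Among B and plasma cell genes, 4 of 10 had a peak. Pax5, the regulator of B cell identity, had 5 peaks, 3 of them over its span of 186 kb, and its tallest, at 58.7 normalized tags and 6.5 control tags, was the single strong peak of the wider immune set. Mzb1, a chaperone of antibody-secreting cells, had 2 peaks near the gene but none over it, the taller with 29.9 normalized tags and 0.5 control tags. Cd22 (11.5 normalized tags) and Cd79b (10.5), a regulator and a chain of B cell receptor signalling, had 1 peak each, both beside 0.5 control tags.

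Of the other myeloid genes, 10 of 30 had a peak. Mrc1, the mannose receptor of macrophages, led with 48.2 normalized tags and 4.5 control tags, in 1 of 2 peaks inside the gene. Itgax (30.9 normalized tags, 2 control tags), Elane, the neutrophil elastase gene (27.2 and 1), and Itgad (26.2 and 1) followed. Those peaks of Itgax and Elane lay outside the gene but within 5 kb, and that of Itgad lay across its upper-coordinate end. Genes for natural killer and mast cells had a peak in 3 of 11 cases. Kit, which is also expressed in interstitial cells of the gut, had a peak of 47.1 normalized tags beside 3.5 control tags. Those at the granule genes Gzma (11.5 normalized tags) and Prf1 (9.95) were smaller. Of all peaks, 22.9% had a normalized tag count below 11.5, and 8.83% had one below 9.95.

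**Figure D4:**
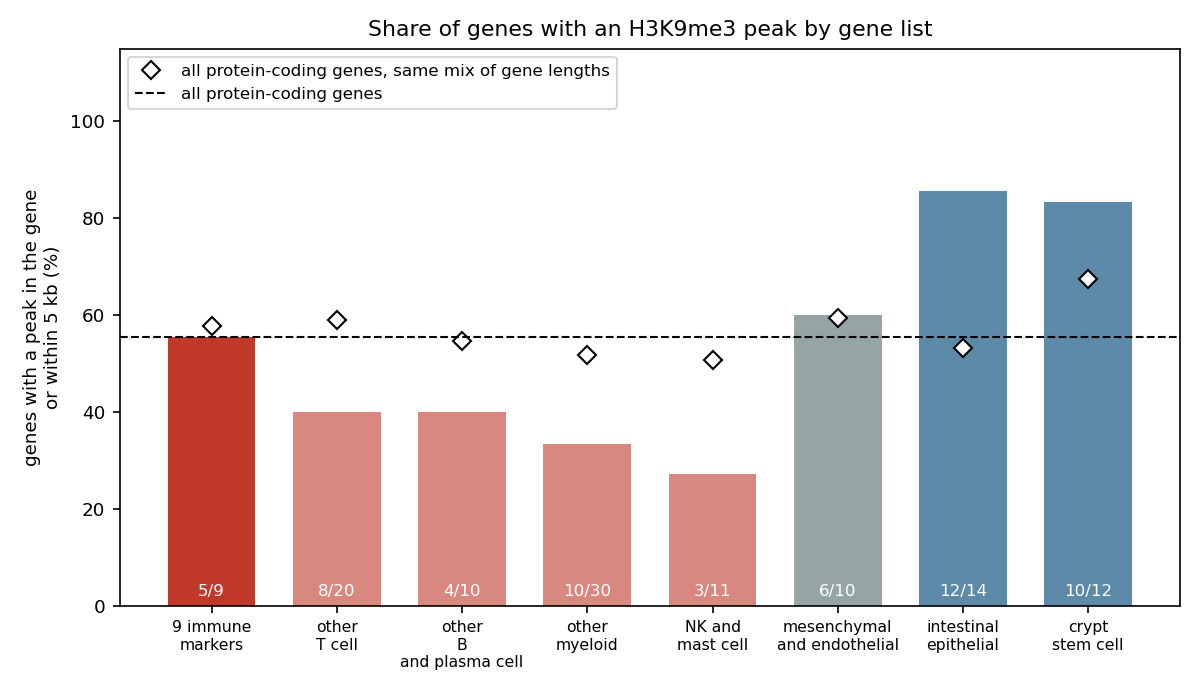
Percentage of genes with a peak in the gene or within 5 kb in each gene list (bars, with the counts of genes at the foot), for the 9 markers, the 4 other immune lists and the 3 non-immune lists. The dashed line is the 55.6% of all protein-coding genes, the diamonds are that share weighted to each list's mix of gene lengths, and the 4 other immune lists stand at 27.3 to 40.0%, below both.

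Genes that mark the sorted lineage were counted in the same way. The immune markers had a peak in 5 of 9 genes, intestinal epithelial genes in 12 of 14 (85.7%) and crypt stem cell genes in 10 of 12 (83.3%). The share of all protein-coding genes was 55.6%. Weighted to each list's mix of gene lengths, that share was 57.7%, 53.1% and 67.4%, in the same order. Krt8, a keratin of simple epithelia, had the tallest epithelial peak at 29.3 normalized tags and 4 control tags, close to the 27.8 at Adgre1, followed by the tight-junction gene Cldn3 at 28.3 and 2, the galectin gene Lgals4 at 27.2 and 2, and Cldn7, another claudin, at 25.7 and 2.5. Taller peaks lay at 3 crypt stem cell genes, Ascl2, Axin2 and Msi1. Ascl2, a transcription factor of the stem cell state, had a strong peak of 69.1 normalized tags beside 7 control tags. Axin2, a feedback inhibitor and target of Wnt signalling, had 5 peaks, the tallest at 44.0 normalized tags and 2 control tags. The tallest at Msi1, which encodes an RNA-binding protein, and at Smoc2, which encodes a matrix protein, were 32.0 normalized tags beside 2.5 control tags and 26.7 beside 2. Mesenchymal and endothelial genes had a peak in 6 of 10 cases, beside 59.4% of protein-coding genes at the same mix of lengths. Their tallest was at Pdgfra, a growth factor receptor of fibroblasts (38.8 normalized tags and 3.5 control tags). The difference between these counts was not tested.

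Gene length and promoter sequence moved with the presence of a peak across all genes. The share of protein-coding genes with a peak in the window was 34.3% in the shortest of 5 equal length classes and 75.8% in the longest. With genes in 5 equal classes by the number of CG in the promoter window, it was 22.8% in the lowest class (at most 3 CG), 47.5% in the next (3 to 9) and 67.3 to 69.6% in the upper 3. The 6 immune markers with a promoter in the RefSeq table (Ptprc, Cd3e, Cd8a, Itgam, Cd68 and Lyz2) held 1 to 8 CG with a median of 4, so all 6 fell in the lower 2 classes. The 52 other immune genes with a promoter there had a median of 3.5, the 11 intestinal epithelial genes one of 9, and the 6 crypt stem cell genes one of 18.5. The part of CG content and of length in the differences between lists was not tested. None of the 6 member promoters was touched by a peak, against 13.0% of promoter windows. With the windows themselves in 5 equal classes by CG, it was 1.07% in the lowest class (at most 2 CG), 3.23% in the next (2 to 5) and 13.4% in the third (5 to 11), to which the windows of Itgam (6 CG) and Cd3e (8 CG) belong.

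The motif GAGGAA, found in preferred sites of the myeloid and B cell factor PU.1, was searched on both strands of the promoter windows, with TATAAA, which cannot overlap it, as a second motif. GAGGAA was found 3 times in the Itgam window, 2 times in that of Cd68, once each in those of Cd3e and Cd8a and in 1 of 2 windows of Ptprc, and not in that of Lyz2. It occurs in 28.3% of all promoter windows. TATAAA was found in 1 window of Ptprc alone, against 13.6% of all windows. These are matches of letters and were not tied to the peaks, none of which lay in these windows.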

How the data were processed

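The authors deposited a single list of H3K9me3 peaks. For the control library, only its tags inside those peaks were at hand. The submitters' processing notes name the aligner Bowtie2 2.2.8, the peak suite HOMER 4.10.1 and the builds GRCm38 and mm10. The columns are those of HOMER findPeaks, per the file headers, and its options are not stated there. In the deposited list, the normalized tag count is a signal in ChIP tags per fixed total of library tags (the total is not stated). Control tags are a deposited signal too, with a floor of 0.5, where 43.0% of peaks stand. The authors' fold is a ratio of depth-scaled ChIP tags to control tags, at least 4 everywhere, and at the floor it depends on the floor. Each deposited p-value and each score of the authors came from the peak caller.

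Low normalized tag counts were whole steps of 0.524 (0.5 tag) in 100% of cases, within 0.1 step, so tags were recovered. The ChIP library was deeper, and the control had 0.684 of its tags. If scaling was to 10 M tags, an assumption, depths were 9.55 M for ChIP and 6.53 M for the control. Tag intervals use the exact Poisson formula at 95%, which holds for whole counts. Tag values run in steps of 0.5 tag here, so the intervals are approximate.

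Genes came from a RefSeq table of GRCm38.p6 without exons or repeats, less 348 genes with scaffold coordinates. Strand came from the RefSeq promoter table, which held 6 of the 9 genes. Overlap counting was tested on simulated data. The members and all lists were chosen with earlier results of these data known. Genes named are the 9 members, genes sharing a peak with one, nearest protein-coding neighbours where they bear on a peak, and up to 4 genes per list with the tallest peak. Genes inside a peak-free stretch and hosts of a nearest peak (Jaml, Mpzl3, Cpsf6, Yeats4, Ube4a, Cops7a and Cd3g) were named after their values were seen. Alternatives were other peak thresholds, windows, overlap rules, merged peaks and 1 gene per peak. Python 3.11.15.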

Additional observations from a re-analysis of the deposited data

How the results depend on the processing

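With 1 library per group no replicate could be left out, and no paired analysis was possible because each group has a single library. The count of 5 members with a peak became 3 for peaks at or above the median score, for peaks of at least the median normalized tag count, for the gene span alone and with each peak given to its nearest protein-coding gene. Over all protein-coding genes the share was 55.6% as reported. Under these settings it was 40.8%, 35.8%, 46.6% and 48.7%, in the same order. The number of peaks at the members, 5, became 3 under the same 4 settings and 10 with 10 kb either side. With 10 kb either side 7 of 9 members had a peak, against 62.8% of protein-coding genes. Ptprc and Itgam gained their first, and Cd8a, Adgre1 and Cd68 each gained a second, while Cd3e and Lyz2 had none under any setting run. Cd4 lost its peak under 6 of the settings. Members with a peak within 2 kb of an end, 2, became 1 with the nearest gene and 4 with 5 kb around an end. The share of all protein-coding genes was counted for the 2 kb rule alone (36.7%), so these changes cannot be set beside it. The 12108 protein-coding genes with a peak became 7802 (35.8%) at the median tag count. The 25 of 71 other immune genes became 16 by score, 15 for peaks above the lowest control value and 14 at the median tag count, and their share stayed below that of all protein-coding genes under all settings run, by 14.9 percentage points or more. The count of members over the gene span stayed at 2 or 3, and no member had a strong peak at any cut-off tried. The peaks rested on 9 to 26.5 ChIP tags, and the intervals of neighbours in the order of height overlapped. The interval of Cd4 also overlapped those of Cd68 and Cd8a, and it ended below that of Adgre1.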
